A study of Danio rerio with 16 samples.

Results

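The bulk-seq comparison of testes from TCDD-exposed and control zebrafish rests on 5 of the 16 libraries of the series, chosen by their labels: 3 libraries of dissociated testes from control fish (CB) and 2 of dissociated testes from fish exposed to TCDD, a chlorinated dioxin (TB). All fish were of the AB strain and, by the study's methods, about 1.5 years of age. Juveniles of both groups had spent 1 h in treated water at 3 weeks and again at 7 weeks post-fertilization, with 50 pg/ml of TCDD for TB and with the vehicle, 0.1% DMSO, for CB. The labels of the control samples give 50 pg/mL as well, and the exposure described in the study's methods was followed. Testes were minced, digested with collagenase and freed of dead cells, so the libraries describe suspensions of live cells and not whole organs. The suspensions also served scRNA-seq, whose counts summed over cells are called pseudo bulk-seq (CP, 3 libraries, and TP, 2 libraries), while most of the cells were lysed directly for bulk-seq. The study took both testes for each replicate but gives no number of fish per library outright, so p-values measure the spread between these libraries. The other bulk-seq libraries of the series are from control fish of 1 year of age, as dissociated (CD, 3 libraries) and intact (CI, 3 libraries) testes, and were used only for context.

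TCDD is a ligand of the aryl hydrocarbon receptor (AhR), a TF that pairs with ARNT and switches on detoxification genes such as cyp1a. In the zebrafish testis, germ cells develop in cysts lined by Sertoli cells, from spermatogonia through meiosis to sperm, while Leydig cells between the tubules make androgens. The exposure lay in juvenile life and RNA was taken from adults, so the comparison asks which transcripts differed long after exposure.

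Counts per RefSeq transcript were available for 14792 rows, of which 12939 had enough counts to be tested. The CB libraries held 17638247, 36172885 and 22015322 counts and the TB libraries 13242441 and 4828801, so both TB libraries were shallower than every CB library. The deposited columns of this table are named scC1 to scC3 and scT1 and scT2, as the scRNA-seq samples are. They were taken as bulk-seq because the table is that of TB and CB, and in none of them did more than 9 of the 4388 rows shared with the pseudo bulk-seq table hold the same count. Library numbers below are those of the columns. Levels of single genes are given as CPM, counts scaled to a common library size with TMM factors. Germ cell markers were high throughout: the helicase gene ddx4 (NM_131057) was at 852, 1406 and 1083 CPM in CB and 903 and 1239 CPM in TB, and sycp3 (NM_001040350), a gene of the synaptonemal complex, at 933, 1774 and 1217 CPM in CB and 1016 and 1585 CPM in TB. Somatic markers were present at low levels, with gsdf (NM_001114668) of Sertoli cells at 22.0, 31.7 and 43.7 CPM in CB and 17.5 and 42.4 CPM in TB. None of these 3 genes separated the groups. In bulk samples, fewer cells of a type and less RNA per cell cannot be told apart.

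The libraries did not fall into 2 groups by exposure. In a principal component analysis of log2 CPM, PC1 held 52.6% of the variance and set TB library 2, at 115.2, apart from the other libraries, which lay between −32.3 and −20.1. PC2 held 21.0% and placed TB library 1 at −60.1, TB library 2 at 4.54, and the CB libraries at 35.15, −17.8 and 38.3. The Pearson correlation of log2 CPM was 0.936 to 0.943 between TB library 1 and the CB libraries and 0.883 to 0.888 between TB library 2 and the CB libraries, across rows, which are not independent replicates.

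**Figure D1:**
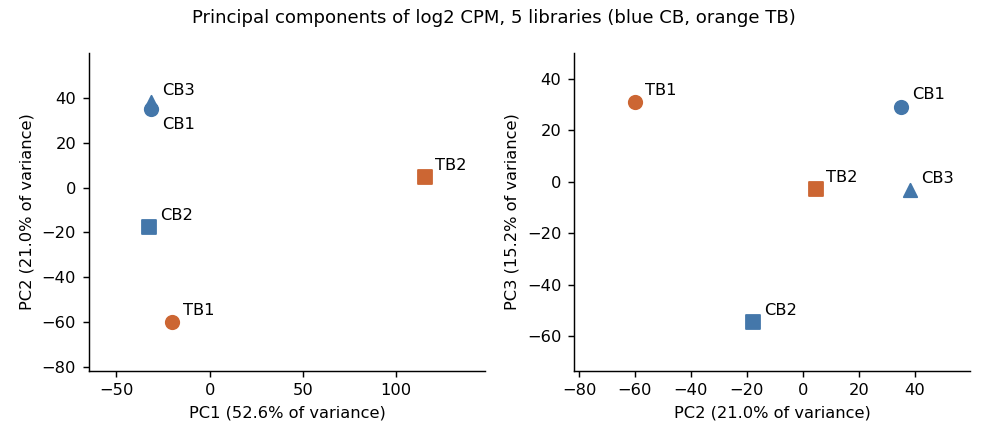
Scores of the 5 libraries on the first 3 principal components of log2 CPM over the 12939 rows tested (axes in score units with the share of variance; blue CB, orange TB; 1 point per library). PC1 separates TB library 2 from the other 4 libraries, and CB library 2 lies between TB library 1 and the other CB libraries on PC2.

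TB library 2 stood apart through transcripts that were low in it. Among 7760 rows with a mean of at least 10 CPM, 244 were more than 4-fold below all 4 other libraries in TB library 2 and 0 were more than 4-fold above them, while each other library had between 0 and 2 such rows below and between 0 and 1 above. The glutathione transferase gene gstp1.2 (NM_131734) was at 171, 167 and 166 CPM in CB and 166 and 14.3 CPM in TB. The germ cell gene dazl (NM_131524), an RNA-binding protein needed for germ cell development, was at 841, 1060.0 and 863 CPM in CB and 669 and 144 CPM in TB, and the survivin gene birc5a (NM_194397) at 167, 135 and 181 CPM in CB and 131 and 9.82 CPM in TB. TB library 1 was within or near the control range for these 3 genes, which were picked as examples after their values were seen. Of the 244 rows, 1 was a DEG lower in TB by the rule given below, against 51 of all 7760 rows. The 244 rows were selected by a gap between the TB libraries. Such a gap makes a DEG call unlikely, so no conclusion is drawn from that count. The pattern of TB library 2 recurred in an unexposed library. Of the 244 rows, 237 were lowest in CI replicate 2 among the 6 CD and CI libraries, against 3050 of all 7760 rows (39.3%). In CI replicate 2, 73 of the 244 rows were more than 4-fold below the other 5, against 111 of all 7760 rows. The cause was not tested.

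In edgeR's quasi-likelihood test of TB against CB, 0 of 12939 rows (0%) had an adjusted p under 0.05. The smallest adjusted p was 0.553, while 1149 rows had an unadjusted p under 0.05 (8.88%). DESeq2 called 9 rows and edgeR's likelihood ratio test 15 at an adjusted p under 0.05, and limma voom called 0, with 1075 rows at an unadjusted p under 0.05. The 9 rows called by DESeq2 were dcaf5 and the non-coding zgc:158463, higher in TB, and socs3b, tac4, bcs1l, mettl16, cmah, zgc:171927 and wu:fc47e11, lower in TB. The study's rule for differentially expressed genes (DEGs), with an unadjusted p under 0.01 and a difference of 2-fold or more, took in 168 rows (1.3% of the rows tested), 89 higher in TB (0.688%) and 79 lower (0.611%). Both TB libraries lay beyond all CB libraries for all 168 of these rows, while in all rows tested the groups did not overlap for 13.8% with TB higher and 16.1% with TB lower. The DEG rule was applied to these same libraries and favors such rows, so the separation is no further support. The same holds where single DEGs are described as separated below. The edgeR adjusted p of every DEG was 0.553, so below only log2 fold changes, with the standard error (SE) of the fit, and unadjusted p-values are given for them. Over all rows tested 47.2% were higher and 52.8% lower in TB, and the median log2 fold change was −0.05.

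The DEG counts moved with the libraries used. The 89 higher and 79 lower DEGs became 23 and 31 without CB library 1, 15 and 17 without CB library 3, 49 and 58 without TB library 2, and 354 and 1119 without TB library 1, where TB library 2 stood alone and 698 rows passed an adjusted p under 0.05. Without CB library 2 they were 97 and 78. Of the 168 DEGs, 33 were DEGs without CB library 1, 77 without CB library 2, 21 without CB library 3, 115 without TB library 1 and 44 without TB library 2. The share of DEGs that were higher was 53.0% with TMM scaling, 63.9% with the size factors of DESeq2 and 65.3% with library totals only.

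**Figure D2:**
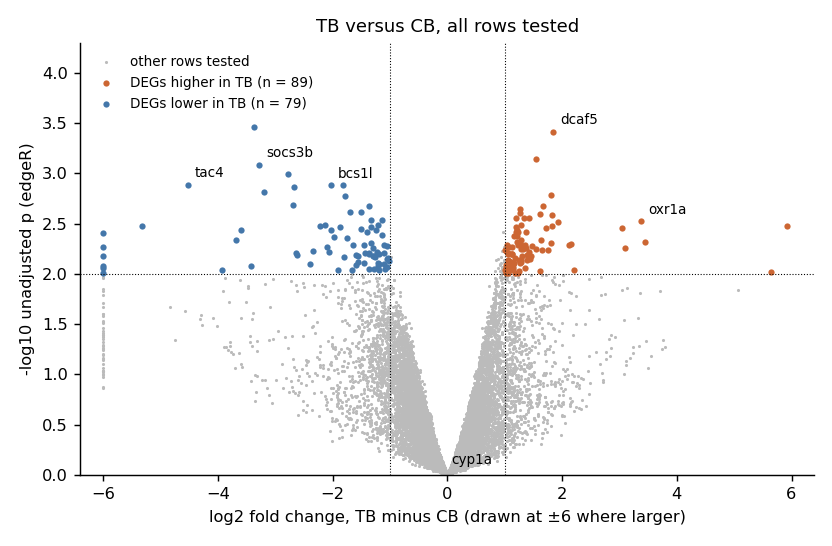
Each point is 1 of the 12939 rows tested, by its log2 fold change (TB minus CB, drawn at ±6 where larger) and the −log10 of its unadjusted p from edgeR's quasi-likelihood test. Orange points are the 89 DEGs higher in TB and blue points the 79 lower, dotted lines mark the DEG thresholds, and cyp1a lies near the origin.

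Of the DEGs, 56 were taken up by a rule of p, fold change and membership of gene lists. All 56 kept their sign under every alternative that gave a value, although hepacam2, colgalt2b and vgll4l had none in 1 setting, and only dcaf5 and bcs1l kept the DEG thresholds in all 16 settings, the reported one included. dcaf5 (NM_001077552), which encodes a substrate receptor of the CUL4 ubiquitin ligase, was at 12.6, 10.99 and 8.37 CPM in CB and 37.2 and 39.5 CPM in TB (log2 fold change 1.85 ± 0.338 SE, unadjusted p = 0.000386). The lowest TB library lay far above the highest CB library. bcs1l (NM_201182), which encodes a chaperone for assembly of respiratory complex III, was at 15.6, 18.03 and 12.1 CPM in CB and 4.399 and 2.90 CPM in TB (log2 fold change −2.03 ± 0.444 SE, unadjusted p = 0.00132), so every CB library lay above both TB libraries. DESeq2 gave an adjusted p of 0.00411 for dcaf5 and 0.0412 for bcs1l. In the unexposed CI libraries, relative to library totals, bcs1l was at 16.57, 4.213 and 12.49 CPM, so CI replicate 2 lay near TB. There dcaf5 was at 10.42, 11.07 and 8.235 CPM, below both TB libraries. The cause of the low bcs1l level in CI replicate 2 was not tested.

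The other lower DEGs with small p-values were of diverse function. socs3b (NM_213304), an inhibitor of cytokine signaling through JAK and STAT, was at 7.36, 7.57 and 6.50 CPM in CB and 1.03 and 0.223 CPM in TB (log2 fold change −3.28 ± 0.668 SE, unadjusted p = 0.000819). tac4 (NM_001270036), a tachykinin precursor, was at 10.1, 3.49 and 15.7 CPM in CB and 0.619 and 0 CPM in TB (log2 fold change −4.53 ± 0.986 SE, unadjusted p = 0.00130), with no count in TB library 2. These 2 genes had adjusted p-values of 0.0113 and 0.00411 in DESeq2. mettl16 (NM_001003611), an RNA methyltransferase that modifies the U6 snRNA, was at 62.2, 59.3 and 77.1 CPM in CB and 25.2 and 11.6 CPM in TB (log2 fold change −1.83 ± 0.398 SE, unadjusted p = 0.00130). For these genes TB library 2 was the lower of the TB libraries, as it was for 54 of the 79 lower DEGs. They were also lowest in unexposed CI replicate 2 among the CI libraries. Relative to library totals, socs3b was there at 4.39, 0.843 and 3.09 CPM, tac4 at 72.4, 15.5 and 51.1 CPM and mettl16 at 45.1, 15.2 and 107 CPM. Of the lower DEGs named next, slc25a27, leprot, cmah, nphs1, vgll4l and hepacam2 were not lowest in CI replicate 2. The cause was not tested. The DEG of smallest p, zgc:171927, has no gene name and had 114, 373 and 161 counts in CB and 14 and 2 in TB. Also lower by the DEG rule were the mitochondrial carrier gene slc25a27 (log2 fold change −2.68), the alcohol dehydrogenase gene adh8a (−2.69), the vesicle fusion gene ykt6 (−1.69), the leptin receptor overlapping transcript gene leprot (−1.78) and cmah (−3.20), which encodes a sialic acid hydroxylase. Lower DEGs of large fold change were the collagen galactosyltransferase gene colgalt2b (−5.32), tmem14cb (−3.68), the nephrin gene nphs1 (−3.60) and vgll4l (−3.42). For 6 lower DEGs both TB libraries had 0 counts. Against a floor of 3 counts over the 2 libraries, hepacam2 was at least 10.25-fold lower in TB and mespaa, a mesoderm TF gene, at least 8.70-fold, with 128 and 105 counts over the CB libraries.

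Several of the higher DEGs are genes of organs other than the testis. Of the 89, 15 are on lists of neurons and glia, skeletal muscle, exocrine pancreas and gut, liver and yolk, lens crystallins or photoreceptor cells, against 0 of the 79 lower DEGs, and 71 of the 89 were higher in TB library 2 than in TB library 1. The lists of crystallins and photoreceptors were added after the data were seen and gave 4 of 46 and 2 of 37 rows tested as higher DEGs. The other lists gave 5 of 40 for neurons and glia, 3 of 30 for exocrine pancreas and gut, 1 of 34 for skeletal muscle and 0 of 29 for liver and yolk. Of all rows tested 0.688% were higher DEGs. Among neural genes, grin1a (NM_001076714), a subunit of the NMDA receptor, was at 15.8, 19.0 and 16.6 CPM in CB and 34.6 and 48.6 CPM in TB (log2 fold change 1.28 ± 0.323 SE, unadjusted p = 0.00329). stmn2b (NM_001024222), a tubulin-binding protein of neurons, was at 35.4, 33.5 and 29.5 CPM in CB and 60.4 and 90.1 CPM in TB (log2 fold change 1.19 ± 0.304 SE, unadjusted p = 0.00339), and the neurofilament gene nefma (NM_001111214) at 103, 139.9 and 87.7 CPM in CB and 186 and 302 CPM in TB (log2 fold change 1.15 ± 0.338 SE, unadjusted p = 0.00793). The glutamate transporter gene slc1a2b had a log2 fold change of 1.06. In the unexposed CI libraries, relative to library totals, grin1a was at 15.7, 22.3 and 16.4 CPM and nefma at 72.7, 107 and 59.5 CPM. There stmn2b was at 44.2, 64.6 and 31.0 CPM, so CI replicate 2 lay near TB library 1. All of these neural genes, slc1a2b included, were highest in CI replicate 2 among the CI libraries. The cause was not tested. Of the list of neurons and glia, 35 of 40 rows tested were higher in TB, against 47.2% of all rows, with a median log2 fold change of 0.64, 13 of them at an unadjusted p under 0.05 (4.44% of all rows), and 0 were lower at that p.

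Genes of the eye were present as well. The lens crystallin gene crygm2d16 (NM_001103134) was at 60.5, 76.7 and 60.4 CPM in CB and 128 and 173 CPM in TB (log2 fold change 1.19 ± 0.294 SE, unadjusted p = 0.00281), and crygm2d14, crygm2d15 and crygm2d3 were also DEGs, with log2 fold changes of 1.17, 1.103 and 1.01. These are close paralogs, which can share 3′ reads. otx5 (NM_181331), a homeobox gene of the pineal organ and retina, was at 17.6, 18.8 and 15.4 CPM in CB and 33.4 and 60.01 CPM in TB (log2 fold change 1.43 ± 0.352 SE, unadjusted p = 0.00280), and the cone G protein gene gnb3b (NM_213202) at 314, 410.3 and 330.0 CPM in CB and 555 and 901 CPM in TB (log2 fold change 1.05 ± 0.305 SE, unadjusted p = 0.00726). The ultraviolet opsin gene opn1sw1 (NM_131319), named after its values were seen, was at 639.9, 749 and 604 CPM in CB and 1171 and 1195 CPM in TB and missed the fold threshold (0.83). Every TB library was above every CB library for each of these 4 genes. In the unexposed CI libraries, relative to library totals, crygm2d16 was at 43.8, 84.3 and 44.9 CPM and otx5 at 12.4, 14.0 and 8.44 CPM. Both lay below both TB libraries there but were highest in CI replicate 2.

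Skeletal muscle genes gave the largest of these levels. The muscle phosphoglycerate mutase gene pgam2 (NM_201024) was at 19.1, 24.2 and 17.8 CPM in CB and 48.2 and 45.3 CPM in TB (log2 fold change 1.199 ± 0.311 SE, unadjusted p = 0.00380). The myosin light chain gene mylpfa (NM_131188), a fixed marker of skeletal muscle, was at 1167, 1380.1 and 1085 CPM in CB and 1949.9 and 2747 CPM in TB and missed the fold threshold (log2 fold change 0.96, unadjusted p = 0.00600). Of the other fixed markers, the skeletal muscle marker actc1b, the liver marker fabp10a and the pancreas marker ctrb.1 were above CB in both TB libraries. The fixed markers ckma, apoa1b and ela2 were above CB in TB library 1 only. The creatine kinase gene ckma (NM_130932) was at 205, 235 and 183 CPM in CB and 343 and 143 CPM in TB, and the liver apolipoprotein gene apoa1b (NM_001100144) at 126, 175 and 123.2 CPM in CB and 264 and 62.7 CPM in TB, so TB library 2 lay below every CB library for both. The pancreatic elastase gene ela2 (NM_001139464) was at 135, 122.7 and 143 CPM in CB and 173 and 134 CPM in TB, with TB library 2 within the range of CB. Of the skeletal muscle list 32 of 34 rows were higher, with a median log2 fold change of 0.61. From the pancreas, the chymotrypsinogen gene ctrb.1 (NM_212618) was at 591, 694 and 551 CPM in CB and 989.9 and 1481 CPM in TB (log2 fold change 1.01 ± 0.282 SE, unadjusted p = 0.00578), and ins (NM_131056), the insulin gene, named after its values were seen, at 13.5, 18.2 and 17.5 CPM in CB and 39.0 and 37.9 CPM in TB (log2 fold change 1.23 ± 0.320 SE, unadjusted p = 0.00388). Of the list of exocrine pancreas and gut 27 of 30 rows were higher (median 0.48), and of the liver and yolk list 28 of 29 (median 0.67), where no row was a DEG. In the unexposed CI libraries, relative to library totals, pgam2 was at 18.8, 30.1 and 15.3 CPM and ctrb.1 at 512, 680 and 390 CPM. Both were highest in CI replicate 2, as were mylpfa, actc1b and fabp10a. There ckma and apoa1b were lowest, and ela2 was neither highest nor lowest. The cause was not tested.

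Summed over each list, as CPM relative to library totals, these tissues had similar profiles over the libraries. Skeletal muscle summed to 11729.7, 14438 and 10338 CPM in CB and 21742 and 20542 CPM in TB, neurons and glia to 2816, 3512 and 2582 CPM in CB and 5066 and 4591 CPM in TB, and lens crystallins to 2631, 3261 and 2334 CPM in CB and 4676 and 4822 CPM in TB. In TB library 1, the sums of skeletal muscle, neurons and glia, lens crystallins, photoreceptors, exocrine pancreas and gut, and liver and yolk were 1.79, 1.71, 1.71, 1.71, 1.75 and 1.76 times the CB mean. In TB library 2 they were 1.69, 1.55, 1.76, 1.57, 1.49 and 1.21 times the CB mean, so the 6 ratios were closer together in TB library 1. Within CB, library 2 had the highest sum for all 6 lists. The Sertoli cell list summed to 1.24 and 1.03 times and the list of spermatids and sperm to 0.82 and 0.92 times the CB mean in TB libraries 1 and 2. The rise was not confined to the 6 lists. In the same order, collagens summed to 1.62 and 1.45 times and smooth muscle and fibroblasts to 1.56 and 1.28 times. Solute carriers of ion and neurotransmitter transport summed to 1.56 and 1.63 times and erythrocytes to 1.53 and 1.21 times.

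The same transcripts were found in the CD and CI libraries, whose table was made separately, at sums below those of both TB libraries. Lens crystallins summed to 1615 to 1769 CPM in the CD libraries and 1744 to 2726 CPM in the CI libraries, and skeletal muscle to 6842 to 7530.2 and 7596 to 11383 CPM. The unexposed sets also differed from each other. In CB, lens crystallins summed to 2334 to 3261 CPM and skeletal muscle to 10338 to 14438 CPM, above every CD library. The cause was not tested. Of these lists, 2 crystallin rows and 1 row of exocrine pancreas and gut had 0 counts in all 5 TB and CB libraries. In the pseudo bulk-seq table of the same suspensions, which holds no value under 30 counts, rows were present for 1 of 42 members of the list of neurons and glia, 2 of 34 of skeletal muscle, 0 of 33 of exocrine pancreas and gut, 1 of 29 of liver and yolk and 5 of 55 of lens crystallins. Such scarcity was not particular to these tissues. Rows were present for 1 of 23 members of the list of Leydig cells and steroidogenesis, 1 of 22 of smooth muscle and fibroblasts, 1 of 29 of endothelial cells and 4 of 33 of Sertoli cells. Likewise, 9 of the 89 higher DEGs (10.1%) had a row there, against 42 of the 79 lower DEGs (53.2%) and 4363 of the 12939 rows tested (33.7%). With all libraries thinned to the smallest total, the median log2 fold changes were 0.61 for skeletal muscle, 0.61 for neurons and glia and 0.79 for lens crystallins. Without TB library 2 they were 0.78, 0.70 and 0.62. The part of these tissues in the DEGs was not tested.

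**Figure D3:**
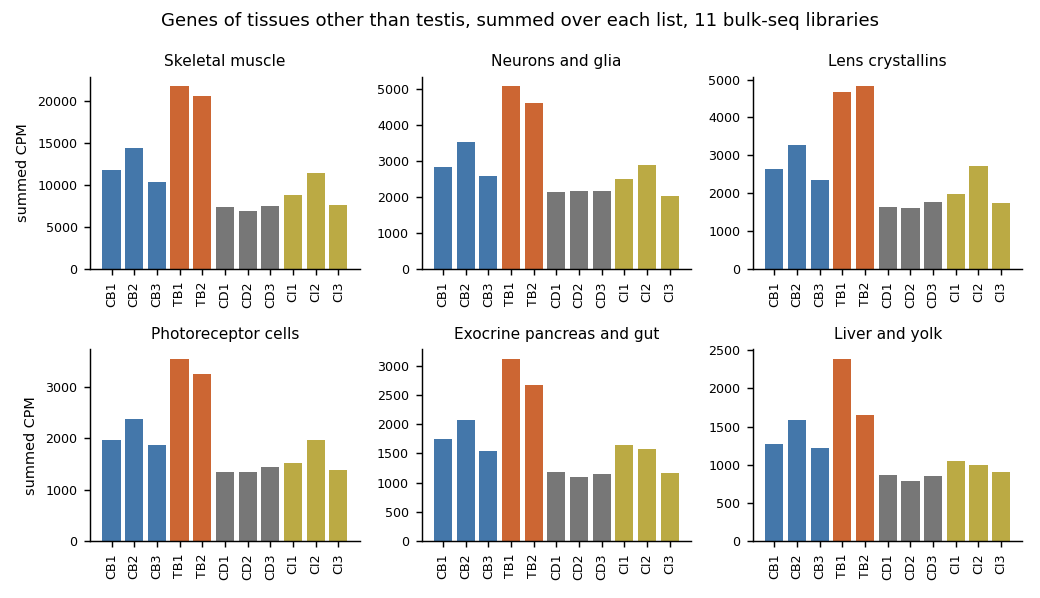
Summed CPM (relative to library totals, axes from 0) of 6 lists of genes of tissues other than testis in the 11 bulk-seq libraries, 1 bar per library (blue CB, orange TB, grey CD, yellow CI). In every list both TB bars are above the 3 CB bars, and the lists share their profile over the libraries.

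Excitability, energy and matrix genes included further higher DEGs. Of the list of sodium and calcium channels and pumps 47 of 60 rows were higher in TB, against 47.2% of all rows, with a median log2 fold change of 0.48 and 14 at an unadjusted p under 0.05 (4.44% of all rows). The L-type calcium channel gene cacna1c (NM_131900) was at 10.9, 9.56 and 7.51 CPM in CB and 19.2 and 25.4 CPM in TB (log2 fold change 1.26 ± 0.365 SE, unadjusted p = 0.00725), and atp2b3b, a calcium pump gene, had a log2 fold change of 1.13. On the glycolysis list 26 of 36 rows were higher (median 0.24) and 4 were higher DEGs, where 0.688% of all rows were. They were pgam2, the neuronal isoforms aldoca (1.34) and eno2 (1.06), and the liver and erythrocyte pyruvate kinase gene pklr (1.03). These 4 encode tissue isoforms. pklr was at 32.92, 42.02 and 42.21 CPM in CB and 61.72 and 97.71 CPM in TB. Relative to library totals, it was at 21.36, 27.41 and 30.44 CPM in CD and 68.40, 64.996 and 74.42 CPM in CI. The unexposed intact testes thus lay near TB library 1 and above CB and CD. The study states that pklr expression may be affected by dissociation, and its part in the difference between TB and CB was not tested. Of 15 collagen rows 12 were higher (median 0.73), with the cartilage collagen gene col2a1b (NM_001281478) at 54.9, 63.4 and 48.9 CPM in CB and 87.0 and 151 CPM in TB (log2 fold change 1.09 ± 0.325 SE, unadjusted p = 0.00833). The neural crest and cerebellar TF gene zic1 (NM_130933) was at 32.1, 36.7 and 26.9 CPM in CB and 65.7 and 88.6 CPM in TB (log2 fold change 1.27 ± 0.302 SE, unadjusted p = 0.00224), and the proton pump subunit gene atp6v0e1 (NM_001006038) at 13.9, 12.1 and 18.5 CPM in CB and 32.0 and 72.7 CPM in TB (log2 fold change 1.81 ± 0.4100 SE, unadjusted p = 0.00165). Both TB libraries were above all CB libraries for each of these genes. In the unexposed CI libraries, relative to library totals, atp6v0e1 was at 33.5, 103 and 35.5 CPM, so CI replicate 2 lay above both TB libraries. There zic1 was at 23.6, 36.2 and 20.3 CPM, below both TB libraries but also highest in CI replicate 2. The same held for col2a1b, at 42.2, 69.9 and 38.7 CPM.

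The higher DEGs of largest fold change were low in every CB library. oxr1a (NM_001114444), which protects cells from oxidative damage, was at 1.31, 0.662 and 0.770 CPM in CB and 2.13 and 17.2 CPM in TB (log2 fold change 3.37 ± 0.839 SE, unadjusted p = 0.00301), with TB library 2 far above the other 4 libraries. cacnb3a (NM_001083555), a calcium channel subunit, was at 0.0571, 0.450 and 0.818 CPM in CB and 3.57 and 6.47 CPM in TB (log2 fold change 3.45 ± 0.931 SE, unadjusted p = 0.00483). tmem41ab (NM_213083), a transmembrane protein gene, was at 0.514, 1.11 and 0.241 CPM in CB and 6.87 and 3.57 CPM in TB (log2 fold change 3.04 ± 0.774 SE, unadjusted p = 0.00346), and here TB library 1 was the higher. nppcl (NM_001161341), a natriuretic peptide gene, and the semaphorin gene sema6a had log2 fold changes of 2.21 and 2.16. gdf6b, a BMP ligand gene named after its values were seen, had 0, 0 and 2 counts in CB and 27 and 11 in TB. Among higher DEGs of small p, mcoln1a (NM_001328165), a lysosomal cation channel, was at 7.99, 5.80 and 6.69 CPM in CB and 16.4 and 27.4 CPM in TB (log2 fold change 1.67 ± 0.394 SE, unadjusted p = 0.00209), and nme2b.2 (NM_130927), a nucleoside diphosphate kinase, at 331, 349.8 and 313 CPM in CB and 578 and 1019 CPM in TB (log2 fold change 1.27 ± 0.307 SE, unadjusted p = 0.00250). zp3 (NM_131331), an egg coat protein gene and the only DEG of the oocyte list, was at 4.62, 3.098 and 4.48 CPM in CB and 10.7 and 13.2 CPM in TB (log2 fold change 1.55 ± 0.430 SE, unadjusted p = 0.00562). The neurotransmitter transporter genes slc1a1 and slc6a17 and the intestinal peptide transporter gene slc15a1b had log2 fold changes of 1.25, 1.02 and 1.24. All of these genes had groups that did not overlap, and TB library 2 was the higher of the TB libraries for each gene given here with its CPM but tmem41ab.

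**Figure D4:**
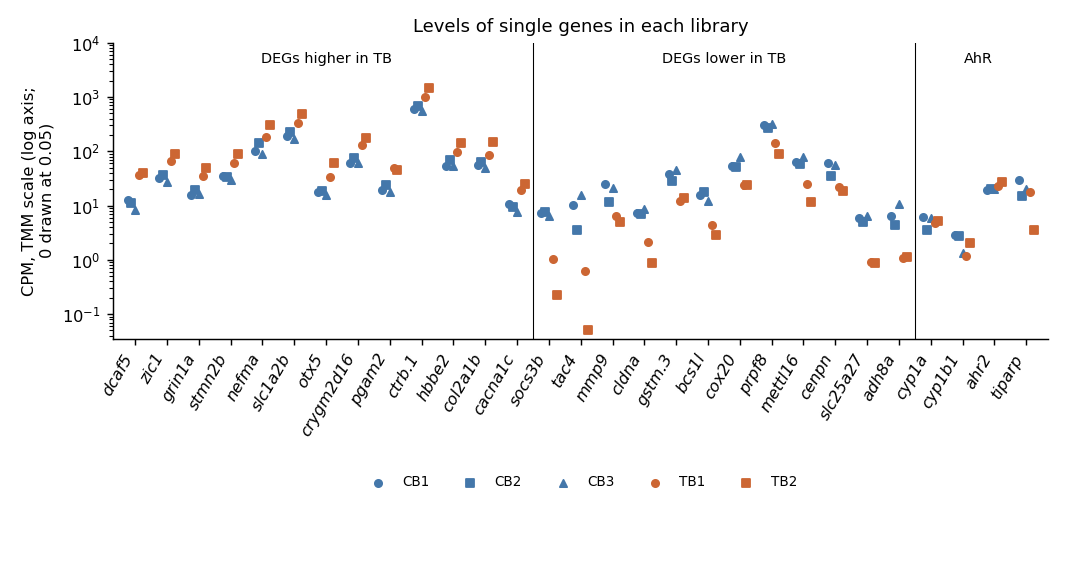
CPM on the TMM scale (log axis, 0 drawn at 0.05) of 29 named genes in each of the 5 libraries (blue CB, orange TB; the shape gives the library number). The 13 higher and 12 lower DEGs were picked for display after their values were seen and their groups do not overlap. Of the 4 AhR genes, ahr2 lies higher in both TB libraries and cyp1a, cyp1b1 and tiparp have overlapping groups.

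Among lower DEGs, genes of pre-mRNA splicing recurred, a list put together after the data were seen, so that its members are examples and no independent evidence. It held 9 DEGs, all lower, where 0.611% of all rows were lower DEGs. In TB 59 of 76 rows were lower, against 52.8% of all rows, with a median log2 fold change of −0.44. Of these, 18 had an unadjusted edgeR p under 0.05 (4.44% of all rows). prpf8 (NM_200976), at the catalytic core of the spliceosome, was at 299, 265 and 316 CPM in CB and 139 and 89.0 CPM in TB (log2 fold change −1.36 ± 0.321 SE, unadjusted p = 0.00213). The Sm protein gene snrpe (NM_201004) was at 330.2, 284 and 365 CPM in CB and 162 and 121 CPM in TB (log2 fold change −1.204 ± 0.305 SE, unadjusted p = 0.00330), and lsm7 (NM_001048006), of the ring that binds U6 snRNA, at 334, 375 and 396 CPM in CB and 177 and 157 CPM in TB (log2 fold change −1.14 ± 0.284 SE, unadjusted p = 0.00293). The further DEGs were snrpd2, lsm8, sf3a3, sf3b5, prpf31 and smu1a, with log2 fold changes of −1.15, −1.19, −1.04, −2.06, −1.28 and −1.97. The median of the list was −0.29 without TB library 2 and −0.55 without TB library 1. Relative to library totals, the list summed to 16809, 18920 and 19100 CPM in CB and 15405.5 and 15231 CPM in TB. In the unexposed CI libraries it summed to 14632.5, 13861 and 16011 CPM, so CI replicates 1 and 2 lay below both TB libraries. There prpf8 was at 210, 120 and 279 CPM, lowest in CI replicate 2. The cause was not tested.

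Mitochondrial and cell cycle genes were also lower more often than higher, where 52.8% of all rows were lower. Of the nuclear respiratory chain list 68 of 87 rows were lower (median −0.34), 8 at an unadjusted p under 0.05 (4.44% of all rows), and the complex IV assembly gene cox20 (NM_001002712) was at 54.0, 50.5 and 77.4 CPM in CB and 23.99 and 24.1 CPM in TB (log2 fold change −1.33 ± 0.331 SE, unadjusted p = 0.00290). Of 68 mitochondrial ribosome rows, a list added later, 52 were lower (median −0.39) and mrpl40 and mrps33 were DEGs (−1.44 and −1.05). The mitosis and kinetochore list had 39 of 47 lower (median −0.46) and the DNA replication list 44 of 52 (median −0.43). cenpn (NM_001002341), a kinetochore protein that binds centromeric nucleosomes, was at 60.198, 35.3 and 56.7 CPM in CB and 22.0 and 18.3 CPM in TB (log2 fold change −1.33 ± 0.359 SE, unadjusted p = 0.00490), and no DNA replication gene was a DEG. For the mitosis list the median deviation from the mean of the 5 libraries was 0.34, −0.16 and 0.48 in the CB libraries and −0.19 and −0.31 in the TB libraries, on a log2 scale, so CB library 2 lay near TB. For the respiratory chain list it was 0.24, −0.04 and 0.29 in CB and −0.05 and −0.43 in TB, so TB library 1 lay with CB library 2 and the lowest value was that of TB library 2.

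Of the meiosis list 12 of 17 rows and of the piRNA list 11 of 15 were lower in TB, against 52.8% of all rows. Their medians of −0.41 and −0.35 ranged from −0.44 to −0.06 and from −0.55 to 0.00 over the alternatives, and were nearest to 0 without TB library 1. The synaptonemal complex gene sycp1 (NM_001118894) was at 3629, 2387 and 3888 CPM in CB and 3042 and 5369.8 CPM in TB (log2 fold change 0.35), while the meiotic recombinase gene dmc1 (NM_001020782) was at 158, 77.5 and 176 CPM in CB and 75.3 and 20.3 CPM in TB, with groups that did not overlap but no DEG call (log2 fold change −1.51 ± 0.569 SE, unadjusted p = 0.0265, edgeR adjusted p = 0.553). In the unexposed CI libraries, relative to library totals, dmc1 was at 84.3, 36.8 and 110 CPM, lowest in CI replicate 2. piwil1 (NM_183338), which carries piRNAs, was at 646, 766 and 671 CPM in CB and 430.0 and 439 CPM in TB (log2 fold change −0.67 ± 0.265 SE, unadjusted p = 0.0310, edgeR adjusted p = 0.553). The histone methyltransferase gene prdm9 (NM_200902), named after its values were seen, was a DEG at 26.3, 30.7 and 33.8 CPM in CB and 15.3 and 11.2 CPM in TB (log2 fold change −1.19 ± 0.350 SE, unadjusted p = 0.00794). Spermatid and sperm genes varied between libraries of 1 group: their median deviation was 0.43, −0.65 and 0.48 in the CB libraries and −0.28 and 0.14 in the TB libraries, and no member was a DEG. The median fold change of that list, −0.26, ranged from −0.80 to 0.05 over the alternatives.

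Genes of immunity and of the stress of dissociation included DEGs in small numbers. They were 2 of 50 rows tested for macrophages and granulocytes, 1 of 30 for interferon and antiviral genes and 1 of 54 for immediate early genes. All were lower in TB. Of all rows tested 1.3% were DEGs, and these counts are too small to be set against that share. mmp9 (NM_213123), a gelatinase of granulocytes and macrophages, was at 24.8, 11.5 and 21.4 CPM in CB and 6.39 and 4.91 CPM in TB (log2 fold change −1.75 ± 0.464 SE, unadjusted p = 0.00440), and the galectin gene lgals9l3 had a log2 fold change of −1.80. The fixed markers of these cells did not share 1 direction, and none was a DEG. mpeg1.1 and mpx were above all CB libraries in both TB libraries, with log2 fold changes of 1.578 and 0.768 (unadjusted p = 0.0608 and 0.379). The marker lyz was below all CB libraries in both (−0.198, unadjusted p = 0.549), and c1qa had overlapping groups. On the list of macrophages and granulocytes, 27 of 50 rows were higher and 23 lower, and 2 were DEGs. The median of 0.21 did not keep its sign, with a range of −0.46 to 0.36 and the sign kept in 13 of 16 settings. In the unexposed CI libraries, relative to library totals, mmp9 was at 13.9, 5.18 and 9.88 CPM, so CI replicate 2 lay near TB. Only socs3b was a DEG among immediate early and interferon genes, whose lists had medians of −0.20 and −0.27, and the apoptosis list, with 29 of 38 lower (median −0.44), held no DEG. The glutathione transferase gene gstm.3 (NM_001162851) was at 37.4, 27.9 and 45.2 CPM in CB and 12.2 and 13.8 CPM in TB (log2 fold change −1.51 ± 0.363 SE, unadjusted p = 0.00244), and the claudin gene cldna (NM_131762) at 7.25, 6.86 and 8.57 CPM in CB and 2.13 and 0.892 CPM in TB (log2 fold change −2.22 ± 0.564 SE, unadjusted p = 0.00335). The heat shock list had a median of 0.11 and no DEG.

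Of 25 AhR pathway rows tested 0 were DEGs, where 1.3% of all rows were, so that few or none would be found at the share of all rows. cyp1a (NM_131879), its best known target, was at 6.05, 3.52 and 5.78 CPM in CB and 4.74 and 5.13 CPM in TB (log2 fold change −0.05 ± 0.494 SE, unadjusted p = 0.920, edgeR adjusted p = 0.979). A normal approximation from this SE gives −1.02 to 0.92 for the log2 fold change. With so few libraries that range is narrower than a 95% interval, so a 2-fold difference in either direction is not excluded. tiparp (NM_001045019), which limits AhR signaling, was at 29.2, 14.9 and 19.97 CPM in CB and 17.5 and 3.57 CPM in TB (log2 fold change −0.97 ± 0.606 SE, unadjusted p = 0.143, edgeR adjusted p = 0.598), where TB library 2 lay below all other libraries. The receptor gene ahr2 (NM_131264) was at 19.1, 19.8 and 19.8 CPM in CB and 22.9 and 27.4 CPM in TB (log2 fold change 0.36 ± 0.319 SE, unadjusted p = 0.291, edgeR adjusted p = 0.706). The repressor gene ahrra had 1, 1 and 5 counts in the CB libraries and 16 and 1 in the TB libraries and was too low to be tested. On the list 10 rows were higher (median −0.13) and 0 had an unadjusted p under 0.05, against 8.88% of all rows.

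Somatic testis cells were followed by marker genes and lists. Relative to library totals, the Leydig list summed to 380 to 520 CPM in CB, against 4154 to 5331 CPM in the intact CI libraries. The Sertoli list summed to 924 to 1027 CPM in CB, against 5111 to 5821 CPM in CI. For these 2 cell types the values below rest on a low signal in suspension and do not describe the whole testis. The steroid 17-hydroxylase gene cyp17a1 (NM_212806) of Leydig cells was at 31.2, 19.7 and 43.7 CPM in CB and 20.5 and 22.98 CPM in TB (log2 fold change −0.54 ± 0.400 SE, unadjusted p = 0.211, edgeR adjusted p = 0.644), and star (NM_131663), which brings cholesterol into mitochondria for steroid synthesis, at 22.5, 9.27 and 27.1 CPM in CB and 17.4 and 0.669 CPM in TB. For star, TB library 2 held 3 counts, and unexposed CI replicate 2 was the lowest CI library, with 220, 49.1 and 159 CPM relative to library totals. The fixed Leydig marker insl3 was at 132, 45.1 and 183 CPM in CB and 59.7 and 76.5 CPM in TB. The fixed marker cyp11c1 was highest in TB library 2. Relative to library totals, it was at 17.6, 7.80 and 16.6 CPM in CB and 15.1 and 31.5 CPM in TB. acta2 (NM_212620), an actin gene of smooth muscle, was at 135, 37.6 and 33.0 CPM in CB and 128 and 48.4 CPM in TB and separated CB library 1 and TB library 1 from the other libraries, not the exposed from the control ones. Its list, smooth muscle and fibroblasts, had 14 of 20 rows higher in TB (median 0.38), against 47.2% of all rows. Of these, 3 had an unadjusted edgeR p under 0.05 (4.44% of all rows) and 0 were DEGs. The marker myh11a was at 29.0, 32.8 and 19.5 CPM in CB and 46.9 and 45.8 CPM in TB, relative to library totals. The estrogen receptor gene esr1 and the androgen receptor gene ar had log2 fold changes of 0.72 and 0.37, with unadjusted p of 0.134 and 0.217. Lists of Sertoli cells, Leydig cells and steroidogenesis, spermatogonia and endothelial cells had medians of 0.07, −0.06, 0.01 and −0.005, and the only DEG on them was lyve1a, an endothelial receptor gene at 1.71, 0.768 and 0.337 CPM in CB and 2.82 and 13.6 CPM in TB (log2 fold change 3.105 ± 0.857 SE, unadjusted p = 0.00551). Its log2 fold change was 1.64 without TB library 2 and then no longer met the DEG rule, nor did it without CB library 2 or without CB library 3.

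**Figure D5:**
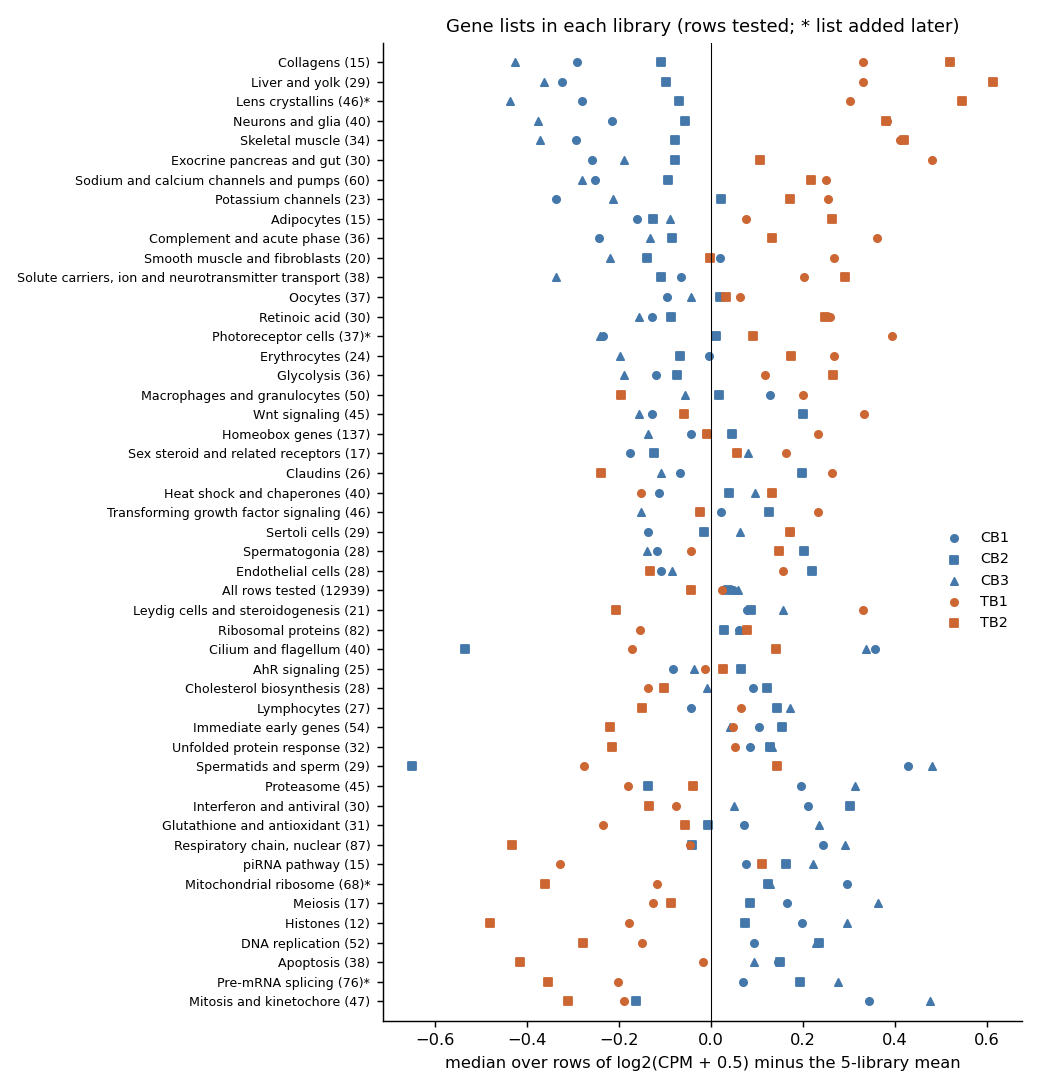
Median over the rows of each gene list of log2(CPM + 0.5) minus the mean of the 5 libraries, with 1 point per library (blue CB, orange TB; row numbers in brackets; lists in order of the median log2 fold change). Collagens and most lists of tissues other than testis lie at the top with both TB libraries above the CB libraries, and spermatid and cilium lists spread by library within CB.

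The same suspensions gave pseudo bulk-seq values for 13 of the 56 named DEGs, given side by side only. mmp9 (NM_213123) was at 21.1, 19.7 and 24.05 CPM in CP and 6.64 and 10.1 CPM in TP (log2 fold change −1.35 ± 0.246 SE, edgeR adjusted p = 0.00872), cldna at 15.2, 21.6 and 20.9 CPM in CP and 8.79 and 12.6 CPM in TP (log2 fold change −0.85 ± 0.254 SE, edgeR adjusted p = 0.0448) and cenpn at 90.4, 87.2 and 108 CPM in CP and 59.6 and 65.5 CPM in TP (log2 fold change −0.61 ± 0.182 SE, edgeR adjusted p = 0.0452), and all 3 were lower in both methods. bcs1l was at 29.0, 40.9 and 39.2 CPM in CP and 78.4 and 67.9 CPM in TP (log2 fold change 1.00 ± 0.211 SE, edgeR adjusted p = 0.0147), the opposite direction to bulk-seq. For dcaf5 the values were 20.2, 40.8 and 29.2 CPM in CP and 32.7 and 35.15 CPM in TP (log2 fold change 0.15 ± 0.290 SE, edgeR adjusted p = 0.704), so the groups overlapped. The globin gene hbbe2, higher in TB by bulk-seq (log2 fold change 1.02), was at 16.4, 15.99 and 7.91 CPM in CP and 6.46 and 7.05 CPM in TP (log2 fold change −0.98 ± 0.350 SE, edgeR adjusted p = 0.0728). The other 7 had adjusted p-values of 0.208 to 0.888 in pseudo bulk-seq.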

How the data were processed

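The authors prepared 3′ mRNA libraries and aligned reads to GRCz11 on the BlueBee platform; the counting program is not given in the sources used here. The deposited tables hold raw counts per RefSeq transcript, together with the authors' own fold changes and p-values, which were not used. The number of per-sample columns left unused in the tables read was 0. In the TB and CB table, accessions run in the reverse row order of the counts, and counts were reversed before use: row sums then had a Spearman correlation of 0.979 with those of the CD and CI table by accession. The pseudo bulk-seq counts came from Cell Ranger, summed over cells, and 2 further tables that set pseudo bulk-seq against bulk-seq were not used here. Gene symbols (97.6% of rows) came from RefSeq annotation of GRCz12tu.

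Rows passing filterByExpr were tested in R 4.3.3 with edgeR 4.0.16 (TMM, robust quasi-likelihood test, Benjamini-Hochberg adjustment over 12939 rows). Standard errors are the fold change over the square root of F. DESeq2 1.42.0 and limma 3.58.1 served as alternatives. The code was tested on simulated data. The genes named are the 12 DEGs of smallest p and the 6 of largest fold change per direction (with a gene symbol, a mean of at least 1 CPM and groups that do not overlap), the DEGs of each list or else its 2 most abundant members, and a fixed set of AhR and testis genes. Members, lists and tests were chosen with earlier results of these data known, and 4 lists (lens crystallins, photoreceptor cells, pre-mRNA splicing, mitochondrial ribosome) were added after the data were seen. Floors cover counting error only.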

Additional observations from a re-analysis of the deposited data

How the results depend on the processing

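The number of rows at an adjusted p under 0.05, 0 as reported, was 9 with DESeq2, 15 with the likelihood ratio test and 0 to 698 when 1 library was left out. It was 842 with TB library 2 and CB library 2 both left out, an alternative chosen after seeing the data in which 1 TB library stood alone; the DEGs were then 310 higher and 316 lower. DEGs higher in TB, 89 as reported, were 216 with DESeq2, 198 with the likelihood ratio test, 185 with the CD and CI libraries in the fit, 9 among rows also in the pseudo bulk-seq table (chosen after seeing the data) and 15 to 354 when 1 library was left out. DEGs lower in TB, 79 as reported, were 181, 229, 109, 42 and 17 to 1119 in the same order, and 51 with library totals only and 45 with limma voom. Size factors of DESeq2, no low-count filter and thinned libraries kept both DEG counts within 1.5 times; size factors of DESeq2 gave 129 and 73. With the replicate block, 9 were higher and 20 lower. Only numbers 1 and 2 are shared by both groups, they are those of the columns, and no source ties them to an exposure experiment. The study made its exposures in 3 independent experiments, run in succession. Which of them gave each library is not stated, and their part in the difference between TB and CB was not tested. The correlation of deviations was −0.02 for the pair numbered 1 and −0.09 for the pair numbered 2. With 2 TB libraries, their deviations mirror each other. CB library 1 with TB library 2 therefore gave 0.02 and CB library 2 with TB library 1 gave 0.09, which is no separate evidence on pairing. DESeq2 shared 166 of the 168 DEGs, thinned libraries 126, limma voom 98 and the replicate block 15. In fits that left out 1 TB library, the other was assumed to vary like the CB libraries. The causes of these shifts were not tested. Promoter motifs were not analysed here. TB library 2, with 4828801 counts, limits what can be seen of low transcripts: 3 counts there correspond to 0.621 CPM.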
